A study of Mus musculus with 6 samples.

Results

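The genes of glucose uptake, glycolysis, lactate handling and glycogen metabolism were followed across 6 expression arrays of mouse muscle. The list holds 40 genes, and its members on the array were every probe set whose platform annotation names exactly 1 gene, that gene being on the list. In this way 75 of 45101 probe sets were found, for 37 of the 40 genes. Gpi1, Pfkfb1 and Eno1 had no such probe set and were not analysed here. No filter on low values was applied, so all 37 genes entered every count. For each gene the probe set with the highest mean over the 6 arrays was taken as its leading one, and the other probe sets of the gene are given beside it where they differed.

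The treated animals, OVX + E2, were female C57BL/6 mice ovariectomized at 4 months of age that carried pellets with 0.18 mg of 17β-estradiol (E2) for 60 days. The controls, OVX, were ovariectomized in the same way and carried placebo pellets, so no array holds muscle of a mouse with intact ovaries. Each group has 3 arrays with 1 sample each, and nothing in the labels ties an array to a single mouse, so p-values capture the spread among these 6 samples alone, and that spread may be technical. The study names soleus, a calf muscle rich in slow fibres, as the source of the RNA, whereas the sample labels name left ventricle.

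Muscle takes up glucose through membrane transporters, traps it by phosphorylation and either stores it as glycogen or breaks it down to pyruvate and lactate. Fast fibres, which are recruited for short and forceful contractions, are known for high levels of glycolytic and glycogen-degrading enzymes, and slow fibres for oxidative metabolism. Many steps are carried out by several isozymes, of which one is typical of muscle and others of liver, brain or many tissues. Estrogen acts on muscle through receptors such as estrogen receptor α.

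All values are deposited log2 expression values in arbitrary units, from Affymetrix arrays, which read a transcript through a set of short probes. Of 14 fast-fibre genes 13 and of 12 slow-fibre genes 12 were in the brightest 5% of probe sets, against 0 of 9 measured heart genes, among them Myh6, the main cardiac myosin, and Nppa, the atrial natriuretic peptide. The fast-fibre content of each array was summarised by a score: each of the 14 fast-fibre genes was centred on its own mean over the 6 arrays, and the 14 centred values of an array were averaged. The values were not scaled, so Myh4, Actn3, Mybpc2 and Pvalb weigh most in the score. Between OVX + E2 replicate 3 and OVX replicate 3 they rose by 6.12, 4.24, 4.27 and 4.12 log2 units, and the other fast-fibre genes by 0.30 to 2.20. None of the 14 is on the list of glucose and glycogen genes. The score was 0.25, −0.21 and −1.17 on OVX + E2 replicates 1, 2 and 3, and 0.12, 0.23 and 0.77 on OVX replicates 1, 2 and 3. Its difference of −0.75 between the groups did not exceed the spread of the arrays (exact permutation p = 0.3, two-sided, with 20 labelings and a smallest possible p of 0.1). The arrays numbered 3 lie at opposite ends of the score, and for many but not all genes the treatment difference is also given without them. The 3′ minus the 5′ control probe set of Gapdh, a sign of RNA integrity, was 0.015, −0.068 and 0.38 in OVX + E2 and 0.024, 0.16 and −0.024 in OVX. The score and this sign of integrity were both most extreme on OVX + E2 replicate 3, and their separate parts in the results below were not tested. Of 5 measured fibroblast genes 5 were lower in OVX + E2, with mean log2 values of 9.26 to 9.53 in OVX + E2 and 9.41 to 9.88 in OVX. Of all genes 55% were lower. At an unadjusted p under 0.05 from limma 2 of the 5 fibroblast genes were lower, as were 13.3% of all genes. Lower without a threshold were also 5 of 6 endothelial and 4 of 5 macrophage genes, against 4 of 12 slow-fibre, 1 of 9 heart and 1 of 5 fat cell genes. Of the 14 fast-fibre genes that make up the score 14 were lower, 5 at an unadjusted p under 0.05 from limma. Of all genes with a mean value of 10 or more, 93.5% were lower, and 41.8% at that threshold. The 5 measured fat cell genes averaged 8.22 to 8.55 in OVX + E2 and 7.91 to 8.92 in OVX.

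Across the arrays, 22 of the 37 genes rose with the fast-fibre score at an unadjusted p under 0.05 from limma, and 0 fell with it. Of all 18180 genes outside the fast-fibre list, 12.4% rose with the score at that threshold and 4.33% fell, and of those with a mean value of 10 or more, 36.1% rose. Among the 21 glucose and glycogen genes that bright, 16 rose. After Benjamini-Hochberg adjustment over all probe sets 2 genes remained under 0.05, Pygm (adjusted p = 0.029) and Eno3 (adjusted p = 0.038), where 0.0385% of all genes did. Pearson's r with the score ran between 0.66 and 0.98 over the 22 genes, and no adjusted p of r from the exact permutation test over all pairings of the 6 arrays fell below 0.416. Without OVX + E2 replicate 3 and OVX replicate 3, which are farthest from the median score, r stayed above 0 in 21 of the 22 genes. No share of all genes is given for this count. The score was 0.12, 0.23 and 0.25 on OVX replicates 1 and 2 and OVX + E2 replicate 1, and −0.21 on OVX + E2 replicate 2. What is left of the relation therefore rests largely on OVX + E2 replicate 2. In a fit to the remaining 4 arrays 9 of the 22 still passed, where 2.35% of all genes rose at that threshold. These 9 are Pfkfb3, Aldoa, Pgam2, Ldha, Slc16a3, Gpd1, Pygm, Phka1 and Phkb. In that fit 1 gene, Pgam1, fell with the score (1.27%). After quantile normalization of the deposited values 18 of the 22 passed (5.56% of all genes) and 5 other genes, Slc2a1, Hk2, Pfkl, Ldhb and Gbe1, fell with the score (9.94%), the slopes of 5 genes (Hk2, Aldoc, Pgam1, Gyg and Ppp1r3a), all near 0 as deposited, changing sign. After cyclic loess 18 passed (6.88%) and 4, Slc2a1, Pfkl, Ldhb and Gbe1, fell (6.55%). On 19 of the 37 leading probe sets OVX + E2 replicate 3 was the lowest array and OVX replicate 3 the highest, a pattern found in 10.9% of all genes, and on 0 the reverse, found in 6.52%. Over probe sets the first pattern held for 37 of 75 (10.3% of all probe sets) and the reverse for 1 (6.1%), a probe set of Pfkp. By the slope, 42 of the 75 probe sets rose with the score (11.2%) and 1, the same one of Pfkp, fell (4.02%).

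**Figure D1:**
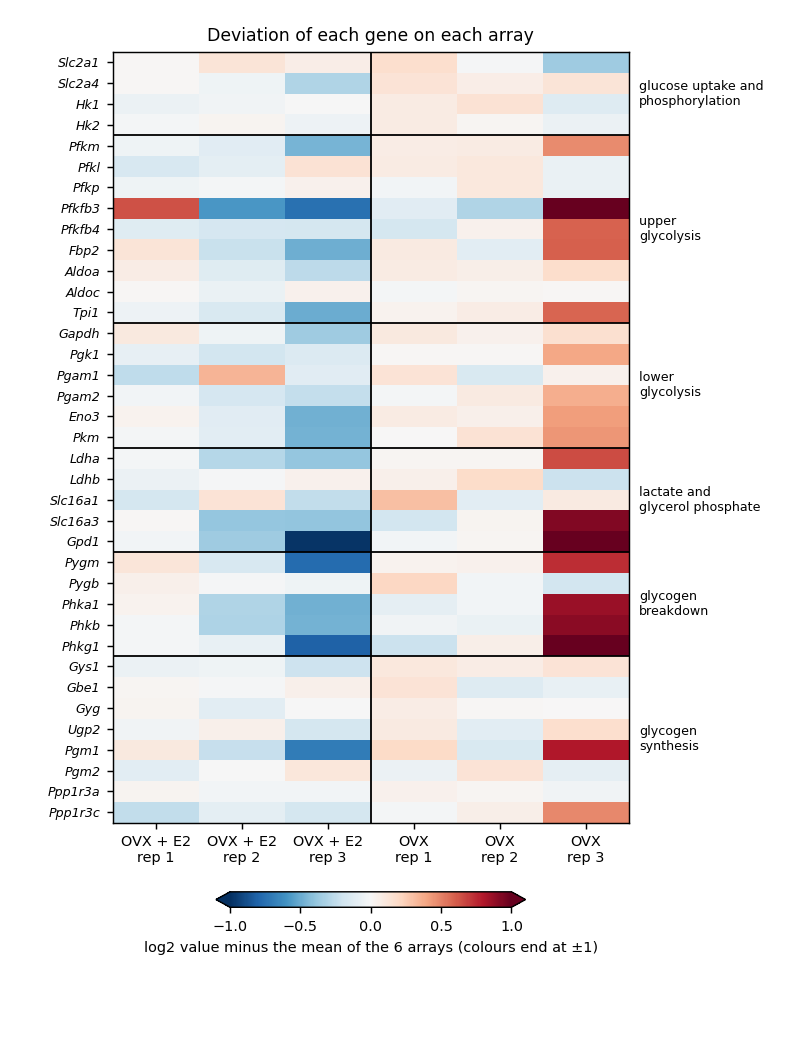
Log2 value of the leading probe set of each of 37 genes (rows, by role) minus its mean over the 6 arrays, on each array (columns), in red above and in blue below the mean, with colours ending at ±1. The column of OVX + E2 replicate 3 is mostly blue and that of OVX replicate 3 mostly red. Slc2a1, Hk1, Hk2, Pfkl, Ldhb, Pygb and Gbe1 are among the genes that do not follow this pattern.

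Between the treatments, 11 of the 37 genes were lower in OVX + E2 at an unadjusted p under 0.05 from limma and 0 were higher, where 13.3% of all genes were lower and 4.62% higher. All 11 are among the 21 bright genes of the list, and of all genes with a mean value of 10 or more, 41.8% were lower at that threshold. Over probe sets the count was 19 of 75 lower and 0 higher, where 9.43% of all probe sets were lower and 4.35% higher. None passed the study's unadjusted threshold of 0.001, which 0.213% of all probe sets passed, and none passed after adjustment, the smallest adjusted p from limma being 0.308. The groups did not overlap, with OVX + E2 lower, in 10 of the 37 genes, where this held for 15.3% of all genes and 42.6% of those with a mean of 10 or more, and with OVX + E2 higher in 0, where it held for 9.96%. Over probe sets these counts were 18 (11.4%) and 0 (9.76%). The difference was below 0 in 34 of the 37 genes, against 55% of all genes and 93.5% of those with a mean of 10 or more, and in 63 of the 75 probe sets, against 52.3%. The median log2 difference was −0.22 over the 37 genes, −0.01 over all 18194 genes and −0.15 over all genes with a mean of 10 or more. It was −0.29 over the 21 bright genes of the list and −0.04 over the 16 others. Without both arrays numbered 3 the median over the 37 genes was −0.09, against −0.13 over all genes with a mean of 10 or more, and it was −0.10 after quantile normalization and −0.08 after cyclic loess. Without these arrays 14 of the 75 probe sets were lower (7.54%). Of the 11 lower genes, Pfkm, Tpi1, Pgk1, Gys1 and Ppp1r3c then passed still, Slc2a4, Aldoa, Pgam2, Eno3, Pkm and Ldha did not, and Hk1 and Pfkl passed in addition. With the score added to the fit 3 of the 75 probe sets were lower (3.96% of all probe sets), for Pfkl, Aldoc and Tpi1. Those of Aldoc and Tpi1 are not the leading ones, which did not pass (unadjusted p = 0.69 and 0.24 from limma). Without OVX + E2 replicate 3 the count of lower probe sets was 6 (5.7% of all probe sets), without OVX replicate 3 it was 10 (9.1%) and without OVX + E2 replicate 2 it was 11 (9.25%). After quantile normalization, which moved the median difference of all genes with a mean of 10 or more to 0.01, the count was 2 lower, for Aldoc and Tpi1 (3.33%), and 4 higher, for Gbe1, Hk2, Slc2a1 and Gyg (4.46%), with Hk2 and Gyg among the 8 genes whose difference changed sign. The probe sets called for Gbe1 and Hk2 are leading ones, and those for Aldoc, Tpi1, Slc2a1 and Gyg are not. After cyclic loess it was 2 lower (4.02%) and 3 higher (3.57%).

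**Figure D2:**
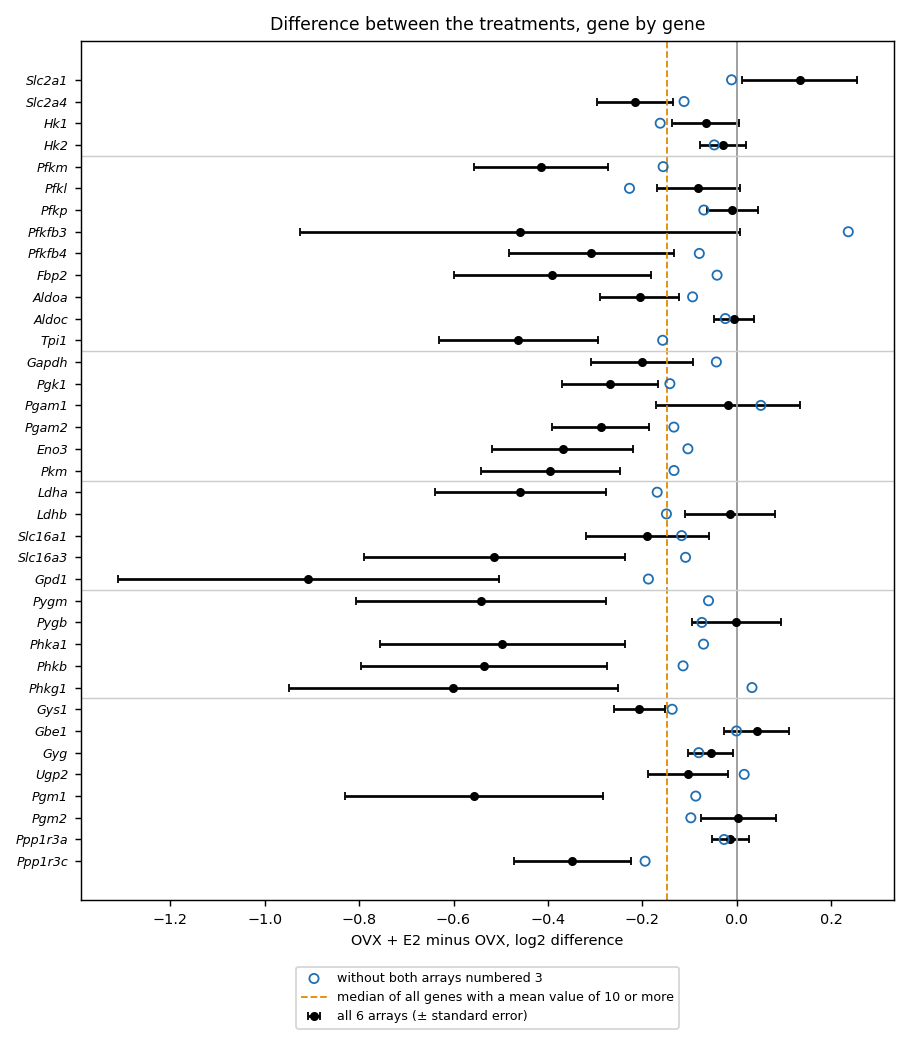
Log2 difference between OVX + E2 and OVX (horizontal axis) for each gene (vertical axis, by role), with its standard error from limma in black for all 6 arrays and as open blue circles without both arrays numbered 3. The orange dashed line is the median of −0.15 over all genes with a mean value of 10 or more. Open circles lie nearer to 0 than the black points for most of the genes with a large difference, such as Gpd1, Pygm and Pgm1.

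The promoters of members that rose together with the score are shown for Pygm and Pgam2, which are typical of muscle, and for Ldha and Pgk1, which are expressed widely. RefSeq's windows from 250 bases before to 50 after a gene's start (GRCm38.p6) were found for 35 of the 37 genes, in 46 windows. In Pygm and Pgam2 the capitals mark the E-box CANNTG, bound by myogenic factors such as MyoD, and the MEF2 box, which recruits the muscle factor MEF2. In Ldha and Pgk1 they mark ACGTG, the core of the hypoxia response element.
Pygm: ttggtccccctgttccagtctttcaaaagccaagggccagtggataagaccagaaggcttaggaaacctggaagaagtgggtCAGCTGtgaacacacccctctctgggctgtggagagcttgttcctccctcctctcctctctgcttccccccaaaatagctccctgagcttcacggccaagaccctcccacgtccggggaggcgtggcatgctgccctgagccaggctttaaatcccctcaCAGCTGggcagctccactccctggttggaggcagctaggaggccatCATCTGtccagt
Pgam2: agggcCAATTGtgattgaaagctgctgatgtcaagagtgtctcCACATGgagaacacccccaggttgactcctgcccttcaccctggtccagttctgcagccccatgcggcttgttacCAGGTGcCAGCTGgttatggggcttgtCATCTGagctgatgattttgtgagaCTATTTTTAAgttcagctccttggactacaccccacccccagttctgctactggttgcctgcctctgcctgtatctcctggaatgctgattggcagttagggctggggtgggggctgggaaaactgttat
Ldha: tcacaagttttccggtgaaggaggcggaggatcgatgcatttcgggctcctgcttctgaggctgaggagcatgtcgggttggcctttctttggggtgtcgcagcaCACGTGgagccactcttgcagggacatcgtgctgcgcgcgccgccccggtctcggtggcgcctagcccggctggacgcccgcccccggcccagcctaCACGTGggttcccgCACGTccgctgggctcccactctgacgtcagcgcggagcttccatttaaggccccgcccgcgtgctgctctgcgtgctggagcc
Pgk1: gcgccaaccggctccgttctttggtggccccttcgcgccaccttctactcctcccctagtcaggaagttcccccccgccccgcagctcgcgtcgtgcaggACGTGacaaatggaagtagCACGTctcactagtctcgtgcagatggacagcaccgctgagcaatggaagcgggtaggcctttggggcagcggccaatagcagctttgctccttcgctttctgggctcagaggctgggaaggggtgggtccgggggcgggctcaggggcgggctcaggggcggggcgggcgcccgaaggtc
The windows lie at chr19:6384158-6384457 (plus strand) for Pygm, chr11:5803747-5804046 (minus strand) for Pgam2, chr7:46845554-46845853 (plus strand) for Ldha and chrX:106186850-106187149 (plus strand) for Pgk1. On both strands, Pygm has 3 E-boxes and 0 MEF2 boxes, and Pgam2 has 5 E-boxes and 1 MEF2 box. Over the 46 windows 71.7% held an E-box, against 72.3% of all 32851 windows, and 4.35% a MEF2 box, against 3.19%, the other gene with one being Ppp1r3a. ACGTG was in 25 of the 46 windows (54.3%), against 19.6% of all windows. The window shown for Ldha has 5 matches to it, a CACGTG counting on both strands, and Pgk1 has 2. A second window of Ldha, chr7:46846832-46847131, has 0 matches to ACGTG and was left out of the display for that reason. The core of the estrogen response element, GGTCA, was in 23 of the 46 windows, against 40.5% of all, and its palindrome (GGTCA and its reverse complement with 3 bases between them) was in 0 of the 46, against 0.0700% of all. A match is a description of the sequence and not a site shown to be bound.

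Among the transporters and hexokinases, Slc2a4 was lower in OVX + E2 with all arrays and Slc2a1, Hk1 and Hk2 were not. Of the 4, 1 rose with the fast-fibre score. For this and the following roles, 12.4% of all genes rose with the score and 13.3% were lower. Of genes with a mean of 10 or more, 36.1% rose and 41.8% were lower. The roles hold few genes, and their counts were not tested. Slc2a4, which encodes the insulin-responsive transporter GLUT4, measured 11.48, 11.43 and 11.17 in OVX + E2 and 11.60, 11.53 and 11.60 in OVX. The groups do not overlap, and the lowest value was that of OVX + E2 replicate 3. The log2 difference was −0.22 (standard error 0.081, unadjusted p = 0.031 from limma), and the slope on the score was 0.23 per unit (standard error 0.044). Without the arrays numbered 3 the difference was −0.11 and did not pass (unadjusted p = 0.080 from limma). Slc2a1, which encodes the widely expressed transporter GLUT1, measured 8.24, 8.36 and 8.30 in OVX + E2 and 8.40, 8.22 and 7.87 in OVX. Here OVX replicate 3 was the lowest array and the groups overlap (difference 0.13, standard error 0.12, and −0.011 without the arrays numbered 3). All 3 probe sets of Slc2a1 had a difference above 0 and a slope below 0. Hk2, the main hexokinase of adult muscle, lay between 11.84 and 11.92 in OVX + E2 and between 11.83 and 11.97 in OVX, with a slope of 0.0078 (standard error 0.042) that turned below 0 after quantile normalization. Hk1, the hexokinase of most tissues, lay between 7.595 and 7.656 in OVX + E2 and between 7.53 and 7.80 in OVX. Without the arrays numbered 3 the Hk1 difference was −0.16 (unadjusted p = 0.019 from limma).

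In upper glycolysis, 6 of 9 measured genes rose with the fast-fibre score (12.4% of all genes) and 3 were lower in OVX + E2 (13.3%). Pfkm, the muscle phosphofructokinase that commits sugar to glycolysis, measured 12.75, 12.68 and 12.33 in OVX + E2 and 12.87, 12.87 and 13.26 in OVX. Its groups do not overlap, with a difference of −0.42 (standard error 0.14, unadjusted p = 0.022 from limma) and a slope of 0.44 (standard error 0.060). The liver and platelet forms Pfkl and Pfkp did not pass for the treatment or the score with all arrays. Pfkl measured 7.65, 7.72 and 7.96 in OVX + E2 and 7.90, 7.92 and 7.75 in OVX, and Pfkp lay between 7.25 and 7.33 in OVX + E2 and between 7.22 and 7.39 in OVX. The slope was −0.095 for Pfkl (standard error 0.068) and −0.041 for Pfkp (standard error 0.044). Without the arrays numbered 3, Pfkl was lower in OVX + E2 (difference −0.23, unadjusted p = 0.0040 from limma), as was Pfkm (difference −0.16, unadjusted p = 0.022 from limma), and with the score added to the fit the Pfkl difference was −0.25 (unadjusted p = 0.0020 from limma).

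Aldoa, the aldolase of muscle, has 5 probe sets, and all 5 were lower in OVX + E2 and rose with the score at an unadjusted p under 0.05. Its leading one measured 13.68, 13.48 and 13.34 in OVX + E2 and 13.68, 13.66 and 13.78 in OVX. Its difference was −0.21 with all arrays and −0.094 without those numbered 3 (unadjusted p = 0.25 from limma). Aldoc, the brain form, lay between 6.51 and 6.63 in OVX + E2 and between 6.557 and 6.597 in OVX. Tpi1, which interconverts the triose phosphates, measured 12.12, 12.02 and 11.68 in OVX + E2 and 12.21, 12.25 and 12.75 in OVX. All 3 of its probe sets were lower in OVX + E2, with log2 differences between −0.46 and −0.44, and the groups of its leading one do not overlap (standard error 0.17, unadjusted p = 0.028 from limma). The difference of the leading one was −0.16 without the arrays numbered 3.

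Other regulatory genes act on this step. Pfkfb3, an enzyme that makes the phosphofructokinase activator fructose 2,6-bisphosphate, measured 8.47, 7.26 and 7.10 in OVX + E2 and 7.72, 7.53 and 8.95 in OVX. OVX + E2 replicate 1 was high here together with OVX replicate 3, and the groups overlap (difference −0.46, standard error 0.47, and 0.24 without the arrays numbered 3). Pfkfb4, of the same family, was high on OVX replicate 3 alone, at 8.93, and lay between 8.16 and 8.22 in OVX + E2 and between 8.16 and 8.38 on the other OVX arrays. Fbp2, the muscle fructose bisphosphatase, which works against phosphofructokinase, measured 8.44, 8.09 and 7.82 in OVX + E2 and 8.40, 8.21 and 8.91 in OVX, with a slope of 0.52 (standard error 0.089).

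In lower glycolysis, 5 of 6 measured genes rose with the score (12.4% of all genes) and 4 were lower in OVX + E2 (13.3%). Pgam1 did neither. Eno3, the muscle enolase, measured 13.27, 13.12 and 12.76 in OVX + E2 and 13.32, 13.28 and 13.66 in OVX. OVX + E2 replicate 1 lay just below the lowest OVX array, so the absence of overlap rests on a small gap (difference −0.37, standard error 0.15, unadjusted p = 0.042 from limma). Without the arrays numbered 3 the difference was −0.10 and did not pass (unadjusted p = 0.16 from limma). Its slope was 0.44 (standard error 0.044), with r = 0.98 (exact permutation p = 0.0083, adjusted p = 0.416 over all genes), rho = 0.77 (exact permutation p = 0.10) and r = 0.89 without the 2 arrays numbered 3. Pgam2, the muscle phosphoglycerate mutase, measured 12.54, 12.41 and 12.34 in OVX + E2 and 12.55, 12.67 and 12.94 in OVX. Pgam1, its widely expressed counterpart, measured 8.03, 8.63 and 8.17 in OVX + E2 and 8.42, 8.13 and 8.33 in OVX, with overlapping groups and a slope of 0.0052 (standard error 0.12) over all arrays, against −1.17 without those numbered 3 (unadjusted p = 0.0019 from limma). The log2 difference was −0.29 for Pgam2 (standard error 0.10, and −0.13 without the arrays numbered 3) and −0.018 for Pgam1 (standard error 0.15).

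Pkm, the pyruvate kinase of muscle, measured 12.21, 12.12 and 11.75 in OVX + E2 and 12.23, 12.37 and 12.67 in OVX, with no overlap (difference −0.40, standard error 0.15, slope 0.44, standard error 0.054). The Pkm difference was −0.13 without the arrays numbered 3 and did not pass (unadjusted p = 0.092 from limma). Pgk1, a phosphoglycerate kinase that forms ATP, measured 12.22, 12.12 and 12.16 in OVX + E2 and 12.31, 12.31 and 12.68 in OVX. The difference was −0.27 (standard error 0.10, unadjusted p = 0.032 from limma), and −0.14 without the arrays numbered 3. Of the probe sets of Pgk1, 3 of 3 rose with the score. Gapdh, the glyceraldehyde phosphate dehydrogenase that is often used as a control gene, measured 13.62, 13.47 and 13.17 in OVX + E2 and 13.61, 13.56 and 13.68 in OVX. Its groups overlap (difference −0.20, standard error 0.11, and −0.043 without the arrays numbered 3), and its slope on the score was 0.28 (standard error 0.038). The leading probe set of Gapdh is the middle one of its control probe sets, whose 3′ and 5′ ones gave the sign of RNA integrity. The 5′ one was lowest on OVX + E2 replicate 3, at 12.83, where the remaining 5 arrays gave 13.34 to 13.60.

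**Figure D3:**
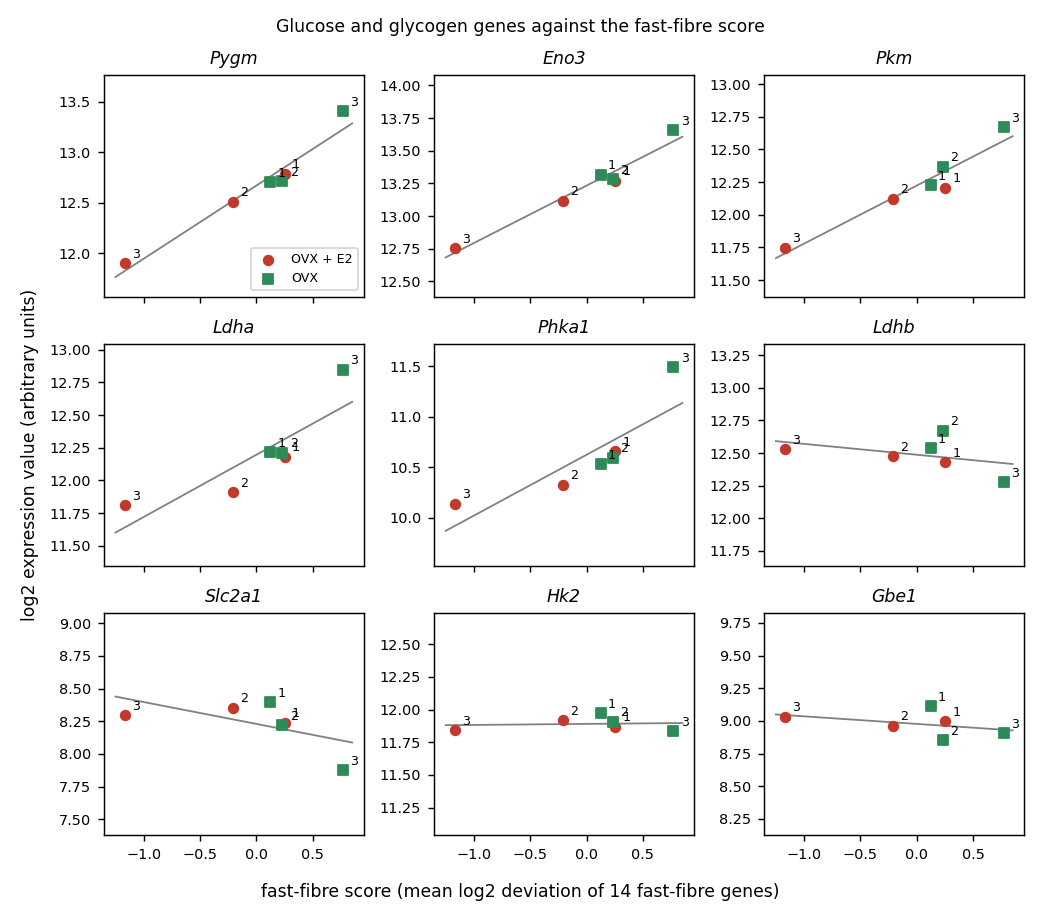
Log2 expression value (vertical axes, arbitrary units) of 9 genes against the fast-fibre score (horizontal axis), for 3 OVX + E2 arrays (red circles) and 3 OVX arrays (green squares), numbered by replicate, with the fitted line in grey. Pygm, Eno3, Pkm, Ldha and Phka1 rose with the score, while the lines of Ldhb, Slc2a1 and Gbe1 slope slightly down and that of Hk2 is flat.

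Of the genes that handle lactate and glycerol phosphate, Ldha, Slc16a3 and Gpd1 rose with the score (12.4% of all genes). Ldha was lower in OVX + E2 (13.3%). Ldha, the lactate dehydrogenase subunit of fast muscle, measured 12.18, 11.91 and 11.81 in OVX + E2 and 12.22, 12.21 and 12.85 in OVX. The groups do not overlap, by a small gap between OVX + E2 replicate 1 and OVX replicate 2 (difference −0.46, standard error 0.18, unadjusted p = 0.039 from limma, slope 0.48, standard error 0.11). The Ldha difference was −0.17 without the arrays numbered 3 and did not pass (unadjusted p = 0.11 from limma). Ldhb, the subunit of heart and slow muscle, measured 12.43, 12.48 and 12.53 in OVX + E2 and 12.54, 12.67 and 12.27 in OVX. It was lowest on OVX replicate 3, where Ldha was highest, and this held for all 4 probe sets of Ldhb, whose slopes lay between −0.16 and −0.064. The treatment difference of Ldhb was −0.014 (standard error 0.096).

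Slc16a3, which encodes the lactate exporter MCT4 of fast fibres, measured 7.54, 7.14 and 7.13 in OVX + E2 and 7.34, 7.56 and 8.45 in OVX. Slc16a1, which encodes MCT1, the transporter through which oxidative fibres take up lactate, measured 10.55, 10.87 and 10.48 in OVX + E2 and 11.03, 10.62 and 10.82 in OVX, and did not pass for the score (slope 0.14, standard error 0.11). Gpd1, the glycerol phosphate dehydrogenase of the cytosol, measured 8.74, 8.41 and 7.78 in OVX + E2 and 8.73, 8.79 and 10.13 in OVX. Between the arrays numbered 3 it differed by 5.10 times, more than any other of the 37 genes. The groups overlap by OVX + E2 replicate 1 (difference −0.91, standard error 0.40), and without the arrays numbered 3 the difference was −0.19.

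Glycogen breakdown had the highest median slope of the 6 roles, 0.61. Of its 5 genes 4 rose with the score (12.4% of all genes), while 0 passed between the treatments (13.3% lower and 4.62% higher). Pygm, the muscle glycogen phosphorylase that releases glucose phosphate from glycogen, measured 12.79, 12.51 and 11.90 in OVX + E2 and 12.70, 12.71 and 13.41 in OVX. The order of the 6 arrays was the order of the fast-fibre score (rho = 1.0, exact permutation p = 0.0028, r = 0.97, exact permutation p = 0.0014, adjusted p = 0.416 over all genes for r, and r = 0.97 without the arrays numbered 3). Its slope was 0.72 (standard error 0.068), and its treatment difference was −0.54 with all arrays (standard error 0.26) and −0.060 without those numbered 3. Pygb, the brain form, measured 7.74, 7.69 and 7.66 in OVX + E2 and 7.91, 7.67 and 7.51 in OVX, with a slope of −0.029 (standard error 0.076).

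Phosphorylase kinase, which switches the phosphorylase on, is built of several subunits. The 3 that were followed all rose with the score (12.4% of all genes). Phka1, its muscle regulatory subunit, measured 10.66, 10.33 and 10.14 in OVX + E2 and 10.53, 10.60 and 11.49 in OVX, again in the order of the score (rho = 1.0, exact permutation p = 0.0028). Phkb, the β subunit, measured 10.04, 9.75 and 9.59 in OVX + E2 and 10.02, 9.995 and 10.97 in OVX. Phkg1, the muscle catalytic subunit, measured 8.65, 8.59 and 7.86 in OVX + E2 and 8.45, 8.72 and 9.72 in OVX. All 6 probe sets of these 3 genes had OVX replicate 3 as their highest array and OVX + E2 replicate 3 as their lowest. The slopes of the leading probe sets were 0.60 for Phka1, 0.61 for Phkb and 0.82 for Phkg1 (standard errors 0.14, 0.15 and 0.15). Without the arrays numbered 3 the treatment differences were −0.071, −0.11 and 0.032, against −0.50, −0.54 and −0.60 with them.

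**Figure D4:**
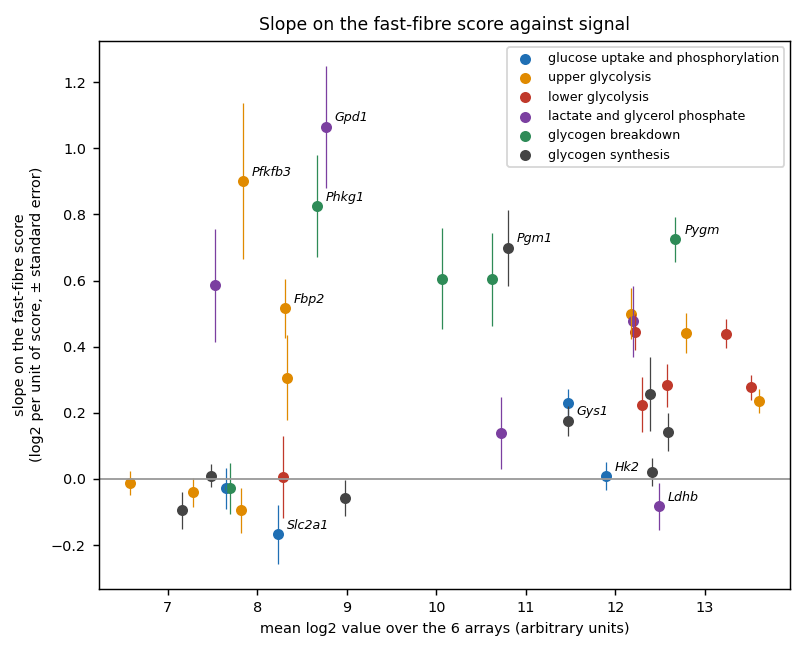
Slope on the fast-fibre score (vertical axis, log2 per unit of score, with its standard error from limma) against the mean log2 value over the 6 arrays (horizontal axis) for the 37 genes, coloured by role. The steepest slopes, for Gpd1, Pfkfb3 and Phkg1, lie at mean values between 7.84 and 8.76, and the 3 genes with a mean of 13 or more have slopes between 0.24 and 0.44.

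In glycogen synthesis, 3 of 8 genes rose with the score, where 12.4% of all genes and 36.1% of those with a mean of 10 or more did. Lower in OVX + E2 were 2, Gys1 and Ppp1r3c, where 13.3% and 41.8% were. Gys1, the muscle glycogen synthase, measured 11.41, 11.42 and 11.25 in OVX + E2 and 11.57, 11.54 and 11.60 in OVX. It has the smallest treatment p of the 37 genes, with no overlap between the groups (difference −0.21, standard error 0.054, unadjusted p = 0.0062 from limma, adjusted p = 0.308, exact permutation p = 0.1). Ppp1r3c, a scaffold that brings protein phosphatase 1 to glycogen and activates the synthase, measured 12.14, 12.28 and 12.20 in OVX + E2 and 12.36, 12.44 and 12.86 in OVX. The groups do not overlap (difference −0.35 with all arrays, standard error 0.12, and −0.19 without the arrays numbered 3). Pgm1, the phosphoglucomutase that links glucose phosphate to glycogen, measured 10.89, 10.57 and 10.10 in OVX + E2 and 10.99, 10.64 and 11.60 in OVX, with a slope of 0.70 (standard error 0.12) and overlapping groups.

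The remaining genes of synthesis moved little. Ugp2, which makes UDP-glucose, passed for the score with a slope of 0.14 (standard error 0.057) and lost it without the arrays numbered 3, where its slope was −0.24. Gbe1, the branching enzyme, lay between 8.96 and 9.03 in OVX + E2 and between 8.85 and 9.11 in OVX, and Gyg, the primer protein glycogenin, between 12.30 and 12.43 in OVX + E2 and between 12.41 and 12.48 in OVX. Pgm2 and Ppp1r3a, another phosphatase scaffold of muscle, differed by 0.0030 and −0.014 between the treatments (standard errors 0.079 and 0.039).

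Slc2a4, Gys1 and Ppp1r3c each have a second, dimmer probe set that followed another pattern than the leading one. That of Slc2a4 measured 10.58, 10.92 and 9.56 in OVX + E2 and 10.90, 10.37 and 11.05 in OVX. That of Gys1 measured 9.50, 9.88 and 8.51 in OVX + E2 and 9.79, 9.25 and 9.98 in OVX. That of Ppp1r3c measured 10.44, 10.83 and 9.75 in OVX + E2 and 10.73, 10.27 and 11.48 in OVX. All 3 were low on OVX + E2 replicate 3 and OVX replicate 2, the 2 arrays on which the Gapdh 3′ minus 5′ difference was highest (0.38 and 0.16). For each of these probe sets the mean of OVX + E2 was below that of OVX, as for the leading ones. The groups overlap, and the treatment differences had standard errors of 0.344, 0.349 and 0.355. The part of RNA integrity in these values was not tested.

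**Figure D5:**
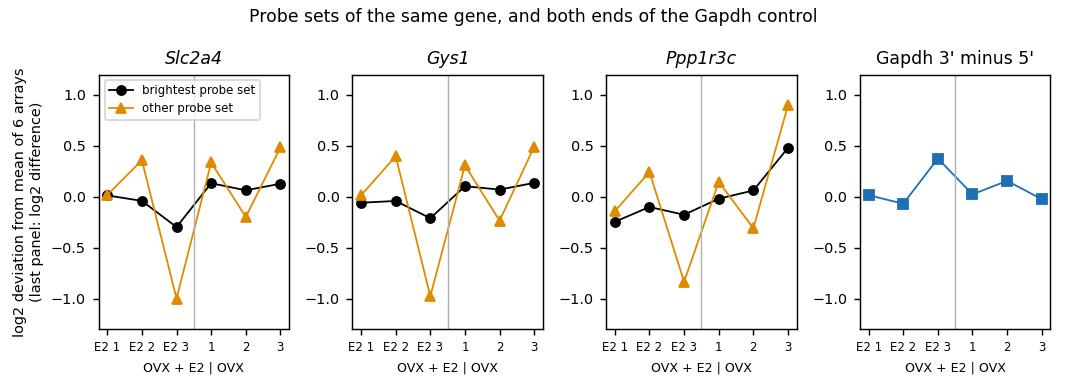
Log2 deviation from the mean of the 6 arrays (vertical axis) of the brightest probe set (black circles) and the other one (orange triangles) of Slc2a4, Gys1 and Ppp1r3c, and the Gapdh 3′ minus 5′ log2 difference (blue squares, last panel), with OVX + E2 arrays left and OVX arrays right in each panel. The orange lines dip on OVX + E2 replicate 3 and OVX replicate 2, where the blue line is highest at 0.38 and 0.16.

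Other genes of the same pathways came from a list of 52, of which 45 were measured. Of these 11 rose and 2 fell with the fast-fibre score at an unadjusted p under 0.05 from limma, and 7 were lower and 1 higher in OVX + E2. Of all genes 12.4% rose and 4.33% fell with the score, and 13.3% were lower and 4.62% higher, so the 7 lower genes are a share near that of all genes. Gpd2, the mitochondrial partner of Gpd1 in the glycerol phosphate shuttle, measured 8.98, 8.37 and 7.54 in OVX + E2 and 8.62, 8.82 and 10.46 in OVX, with a slope of 1.34 (standard error 0.21). Bsg, basigin, a chaperone of the lactate transporters, measured 11.37, 11.29 and 10.81 in OVX + E2 and 11.50, 11.23 and 11.81 in OVX, with a slope of 0.47 (standard error 0.076). Both were lowest on OVX + E2 replicate 3 and highest on OVX replicate 3, as were Gpd1 and Slc16a3. Tigar, which lowers fructose 2,6-bisphosphate, measured 8.31, 8.34 and 8.23 in OVX + E2 and 8.49, 8.47 and 8.66 in OVX, with no overlap (difference −0.25, standard error 0.062, unadjusted p = 0.0050 from limma). Ppp1r3b, the glycogen scaffold of liver, was the 1 gene that was higher, at 6.59, 6.59 and 6.65 in OVX + E2 and 6.53, 6.47 and 6.32 in OVX (difference 0.17, standard error 0.058). Its signal was low, with a mean at percentile 26.6 of all probe sets. Fbp1, the liver fructose bisphosphatase, and Ppp1r3b were the 2 that fell with the score, with slopes of −0.12 and −0.15.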

How the data were processed

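Expression was measured with 1 Affymetrix mouse genome array for each of 6 samples. The authors corrected the background, normalized with variance stabilization and summarised probe sets by median polish in R 2.14.2, and the deposited values are log2 in arbitrary units. Probe-level scans and detection calls were not used here, and arrays have no read depth, so their number limits the precision.

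Gene symbols came from GEO's platform annotation (2016), and none of the 932 with several symbols was used. Linear models with moderated errors (limma 3.58.1, lmFit and eBayes, R 4.3.3) gave two-sided tests for OVX + E2 minus OVX and, separately, for the slope on the fast-fibre score, with Benjamini-Hochberg adjustment over all 45101 probe sets. The fits were tested on simulated data. The members, the lists and the tests were chosen with earlier results of these data known. Values on every array were given for the 8 genes with the smallest p of each fit and for isozyme pairs, except Hk1, Hk2 and Pfkp. These were given as ranges, and other genes were chosen after their values were seen. Alternatives were quantile normalization, cyclic loess, median centring, a filter on brightness, an intensity trend, a block for the replicate number, covariates, another score, another probe set per gene, and leaving out arrays.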

Additional observations from a re-analysis of the deposited data

How the results depend on the processing

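The deposited values gave 96 probe sets at the threshold of 0.001 over the whole array. Quantile normalization gave 31, cyclic loess gave 31 and median centring gave 164, against 30 among probe sets above the median brightness, 39 with an intensity trend, 7 with the score as a covariate and 37 without both arrays numbered 3. Of the 75 probe sets, 19 were lower with the deposited values, 2 after quantile normalization, 2 after loess and 3 with the covariate, and 0 were higher with the deposited values, 4 after quantile normalization, 3 after loess and 1 with the trend. For the score, 2 genes passed after adjustment with the deposited values, 0 after quantile normalization, 0 after loess, 1 after centring, 0 without both arrays numbered 3, 0 with treatment as a covariate and 15 with a score that leaves out Myh4, Actn3, Mybpc2 and Pvalb. The share of all genes rising after adjustment was computed for the deposited values alone (0.0385%). The 15 genes of the shorter score therefore have no share to be set against. Without adjustment 22 passed, and 9 without both arrays numbered 3.

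Leaving out each array in turn gave 19 to 76 probe sets at 0.001, 6 to 24 lower and 0 to 3 higher among the 75, a median difference of −0.29 to −0.17 over the 37 genes, 0 to 2 genes for the score after adjustment and 19 to 23 without it. In these fits 5.7% to 10.1% of all probe sets were lower and 2.3% to 4.26% higher, and 8.08% to 14.1% of all genes rose with the score. The lowest counts at 0.001 and of lower probe sets were those without OVX + E2 replicate 3.

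Arrays of the same replicate number did not deviate together (correlations of −0.13, −0.20 and −0.34). With 3 arrays per group, and the arrays numbered 3 at opposite ends of the score, this cannot settle whether the numbers pair the samples. With the replicate number as a block, 21 probe sets passed at 0.001 and 9 of the 75 were lower. For this fit and the one with an intensity trend, the share of all probe sets under 0.05 was not computed. Over all alternatives no value changed from one called direction to the other. Of the differences of the named genes 62 kept their side of the threshold and 50 lost it, and of their slopes 82 kept it, 17 lost it and 5 gained it. The 3 arrays per group limit the precision.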
